A study of Homo sapiens with 20 samples.

Results

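The FOS and JUN genes encode the basic leucine zipper proteins that pair to form AP-1, and all 7 of them (FOS, FOSB, FOSL1, FOSL2, JUN, JUNB and JUND) were taken by Ensembl identifier (in that order ENSG00000170345, ENSG00000125740, ENSG00000175592, ENSG00000075426, ENSG00000177606, ENSG00000171223 and ENSG00000130522, without the table's suffixes) from a table of 19962 genes counted by PAR-CLIP. AP-1 is a transcription factor made of 1 FOS-family and 1 JUN-family protein, or of a pair of JUN-family proteins, and it binds DNA as a dimer. FOS, FOSB, JUN and JUNB are classical immediate early genes, which growth factors and stress kinases switch on within minutes without new protein synthesis, and their mRNAs are short-lived. FOSL1 and FOSL2 encode the Fra proteins, which lack the strong activation domain of FOS, and FOSL1 is known for sustained expression in colorectal carcinoma cells with an active RAS pathway. JUND is known as the most evenly expressed JUN gene.

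HCT116 cells, an established colorectal carcinoma line of human origin, were used in a form of genotype Tet-OsTIR1-PURO, with an inducible OsTIR1, the plant auxin receptor subunit used for protein degradation. All 20 libraries came from this line after 100 µM 4-thiouridine for 15 h and irradiation at 365 nm, which crosslinks the labelled RNA to bound protein. IGF2BP3, an oncofetal RNA-binding protein known for binding and stabilising mRNAs, was immunoprecipitated in 15 libraries, 3 per condition, and control IgG was used in 5 libraries, 1 per condition. The conditions were PBS for 2 h, 250 µM arsenite for 2 h (an oxidative stress, called arsenate in the treatment label), DMSO for 4 h, and 5 µg/mL tunicamycin (TM, an inhibitor of N-glycosylation that stresses the endoplasmic reticulum) for 1 h or 4 h. TM for 1 h therefore had a vehicle of another duration. The labels do not say whether replicates were separate cultures, so the p-values measure the spread between these libraries, which may be technical. No library of total RNA was used here, so more crosslinked reads from more mRNA and from more binding per mRNA cannot be told apart, nor can a change in all cells and a change in some of them.

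Total counts were 130478 to 1568406 in the anti-IGF2BP3 libraries and 5981 to 17503 in the IgG libraries, and PBS replicate 2 was the shallowest of the former. By their names, the PBS and arsenite libraries belonged to 1 set, while DMSO and TM were split over others, replicates 1 and 2 in one and replicate 3 in another. The IgG libraries of DMSO and TM were in the set of replicate 3. DMSO replicate 3 stood apart for these genes, with 0.104% of its counts (95% exact binomial interval 0.0984% to 0.110%) in the 7 genes against 0.0705% (0.0623% to 0.0796%) and 0.0667% (0.0617% to 0.0721%) in the other DMSO libraries. Calls of FOSB and JUNB against DMSO are given with and without it. Means over DMSO and the comparisons by clusters include it. Of the epithelial markers EPCAM, CDH1, KRT8, KRT18 and KRT19, each had crosslinked clusters in 13, 10, 14, 4 and 8 of the 15 anti-IGF2BP3 libraries, and the leukocyte, fibroblast, endothelial and mesenchymal markers PTPRC, COL1A1, PECAM1 and VIM had 0 cluster reads.

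After 2 h of arsenite 6 of the 7 genes were higher than in PBS (FOS, FOSB, FOSL1, JUN, JUNB and JUND) and FOSL2 was not called. Across all 6642 genes tested, 34.8% were called, 17.6% higher and 17.1% lower (edgeR quasi-likelihood test, adjusted p under 0.05). The median log2 fold change was 3.38 over the 7 genes and -0.0013 over all genes. FOS had the highest log2 fold change of all genes tested, JUN ranked 4, FOSB 5 and JUNB 13, whereas FOSL1 ranked 253 and JUND 270. The PBS libraries held only 6, 1 and 9 counts of FOS, 13, 1 and 11 of FOSB and 4, 0 and 6 of JUN. These genes passed the filter for low counts through arsenite, so their ranks rest on few PBS counts. After TM, at 1 h or at 4 h, 0 of the 7 genes were called higher.

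**Figure D1:**
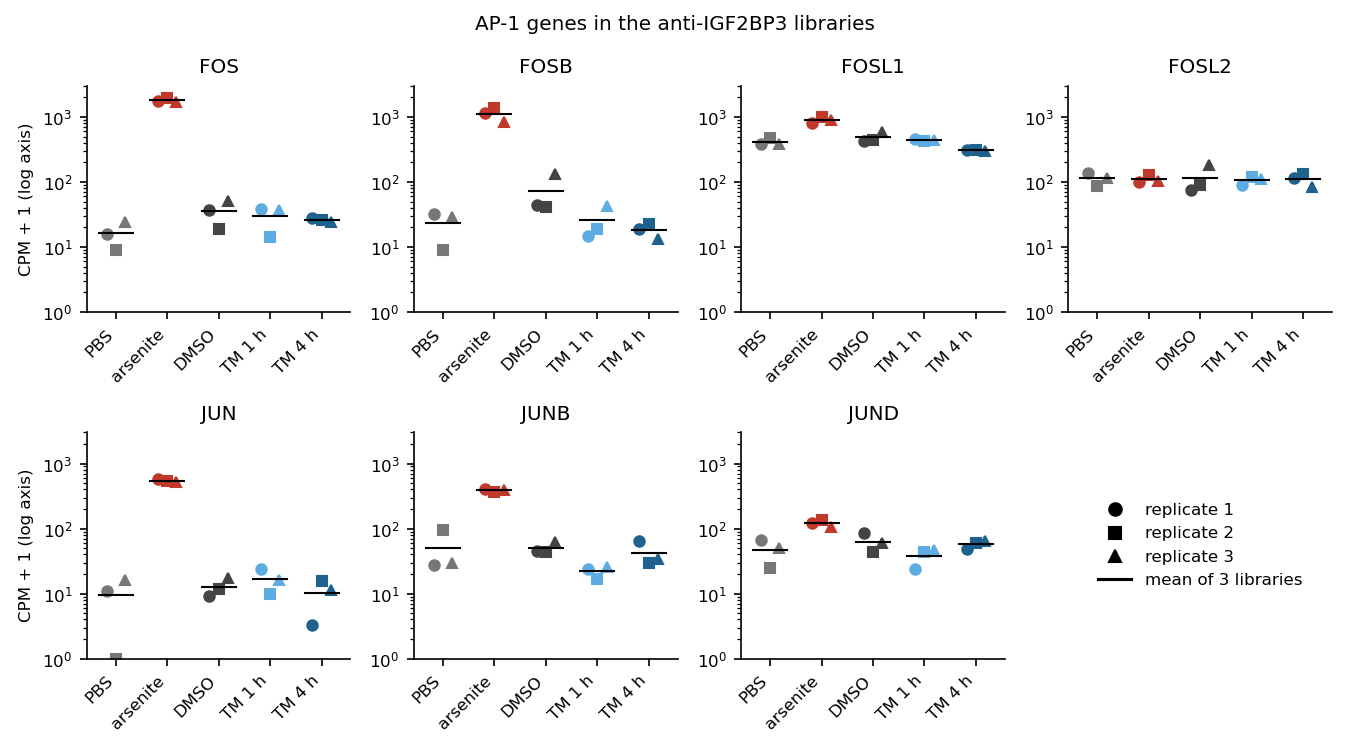
CPM plus 1 (log axis; counts per 1000000 of the library) of the 7 AP-1 genes in the 15 anti-IGF2BP3 libraries, by condition. Each point is 1 library, its shape gives the replicate number, and the line is the mean of 3. The 3 arsenite libraries lie above every other library for all genes but FOSL2, by the widest margin for FOS and JUN.

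FOS, the founding member and the strongest activator of its family, lies on chromosome 14 (GRCh38, 75278828 to 75282230, plus strand) and its counts rose most. Levels are counts per 1000000 (CPM) scaled with TMM factors over the 15 anti-IGF2BP3 libraries, and since they are not divided by length they are compared between conditions and not between genes. FOS was at 14.6, 7.95 and 22.9 CPM in the 3 PBS libraries (mean 15.2 ± 7.51, SD, n = 3) and at 1789, 1953 and 1679 CPM in arsenite (1807 ± 138, SD, n = 3). The groups did not overlap. The log2 fold change was 6.69 (SE 0.16), a 103-fold rise, with an adjusted p of 4.1e-83 by edgeR. DMSO libraries held 35.7, 18.1 and 49.9 CPM, TM 1 h libraries 37.0, 13.3 and 35.5 CPM, and TM 4 h libraries 27.0, 25.5 and 23.2 CPM. In the order arsenite, DMSO, TM 1 h, TM 4 h and PBS, the ranges of DMSO, TM 1 h and TM 4 h overlapped, and TM 4 h and PBS stood just apart. Against DMSO, FOS was not called at 1 h (log2 fold change -0.28, edgeR adjusted p = 0.84) or at 4 h (-0.54, edgeR adjusted p = 0.32).

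FOSB, a close relative of FOS, lies on chromosome 19 (45467996 to 45475179, plus strand). It was at 31.7, 7.95 and 28.0 CPM in PBS (22.6 ± 12.8, SD, n = 3) and at 1142, 1383 and 834 CPM in arsenite (1120 ± 275, SD, n = 3). All arsenite values were above all PBS values. The rise was 40.4-fold (log2 fold change 5.34, SE 0.18, edgeR adjusted p = 6.6e-62). In DMSO it was at 43.9, 40.5 and 133 CPM (72.4 ± 52.3, SD, n = 3), so replicate 3 lay far above the other DMSO libraries. TM 1 h gave 13.9, 17.8 and 42.2 CPM and TM 4 h gave 17.98, 21.5 and 12.2 CPM. All 3 TM 4 h libraries were below all DMSO libraries, while the TM 1 h range reached into the DMSO range.

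FOSL1, which encodes Fra-1, lies on chromosome 11 (65892049 to 65900545, minus strand). It was at 385, 469 and 382 CPM in PBS (412 ± 49.2, SD, n = 3) and at 822, 1005 and 884 CPM in arsenite (904 ± 92.9, SD, n = 3), without overlap. The log2 fold change was 1.19 (SE 0.09), a 2.29-fold rise, with an edgeR adjusted p of 1.1e-23. DMSO libraries held 434, 441 and 577 CPM, TM 1 h libraries 454, 424 and 447 CPM and TM 4 h libraries 310.2, 309.8 and 301 CPM. The TM 4 h libraries were the lowest of all 15 for FOSL1, and their spread (307 ± 4.94, SD, n = 3) was narrow.

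FOSL2, which encodes Fra-2, lies on chromosome 2 (28392858 to 28417317, plus strand) and showed no such pattern. Its mean was 113 ± 24.6 CPM in PBS, 110 ± 16.5 in arsenite, 115 ± 58.5 in DMSO, 106 ± 16.5 in TM 1 h and 110 ± 26.1 in TM 4 h (SD, n = 3 each). Its highest library was DMSO replicate 3 at 182 CPM and its lowest DMSO replicate 1 at 74.1 CPM, and the ranges of all neighbouring conditions overlapped. The log2 fold change in arsenite was -0.13 (SE 0.19, edgeR adjusted p = 0.63), and it turned to 0.032 without PBS replicate 1.

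JUN, which encodes c-Jun, the substrate that gave the JNK kinases their name, lies on chromosome 1 (58780791 to 58784047, minus strand). PBS libraries held 4, 0 and 6 JUN counts, or 9.75, 0 and 15.3 CPM (8.35 ± 7.74, SD, n = 3), and arsenite libraries 228, 318 and 553 counts, or 579, 533 and 522 CPM (544 ± 30.3, SD, n = 3). The 0 was in the shallowest library, where 3 counts, the limit that a count of 0 allows, would be 3 of 130478. The groups did not overlap, and the log2 fold change was 5.61 (SE 0.23), 49.0-fold, with an edgeR adjusted p of 3.0e-52. DMSO, TM 1 h and TM 4 h gave means of 11.7 ± 4.03, 15.8 ± 7.14 and 9.10 ± 6.34 CPM (SD, n = 3 each), which overlapped each other and PBS. JUN was called in neither TM comparison, with log2 fold changes of 0.19 (edgeR adjusted p = 0.95) and -0.34 (edgeR adjusted p = 0.76).

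JUNB, a JUN protein that activates many AP-1 sites less strongly than JUN, lies on chromosome 19 (12791486 to 12793315, plus strand). It was at 26.8, 95.4 and 28.0 CPM in PBS (50.1 ± 39.2, SD, n = 3), where the high value came from 12 counts in the shallow replicate 2. In arsenite it was at 406, 362 and 389 CPM (385 ± 22.3, SD, n = 3), above all PBS libraries, a 10.4-fold rise (log2 fold change 3.38, SE 0.19, edgeR adjusted p = 1.0e-35). DMSO gave 43.9, 42.7 and 61.2 CPM, TM 1 h gave 23.1, 15.5 and 24.9 CPM, and TM 4 h gave 62.9, 28.2 and 33.5 CPM. TM 1 h was the lowest condition and did not overlap any other, while TM 4 h overlapped DMSO.

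JUND lies on chromosome 19 (18279694 to 18281622, minus strand). It was at 65.8, 23.8 and 48.4 CPM in PBS (46.0 ± 21.1, SD, n = 3) and at 122, 134 and 106 CPM in arsenite (120 ± 14.2, SD, n = 3). The log2 fold change was 1.17 (SE 0.23), 2.24-fold, with an edgeR adjusted p of 1.4e-05, and the arsenite libraries lay above all the others. DMSO, TM 1 h and TM 4 h gave 61.9 ± 21.5, 36.8 ± 11.9 and 56.7 ± 8.53 CPM (SD, n = 3 each), and DMSO and TM 4 h overlapped, as did TM 4 h and PBS, and PBS and TM 1 h.

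Without overlap of the 3 libraries on either side, 6 of 7 genes were higher in arsenite than in PBS, where 21% of the 7558 genes compared over 15 libraries were, and the same 6 were higher than in DMSO (24.7% of genes), in TM 1 h (24%) and in TM 4 h (22.7%). Arsenite and TM libraries came from different sets, so of these comparisons only that with PBS lies within a set. Between the vehicles, FOSB alone was higher in DMSO than in PBS (8.98% of genes), and the duration, solvent and library set of these vehicles cannot be told apart. Against PBS, JUNB was lower in TM 1 h (10.5% of genes), FOS was higher in TM 4 h (10.1%) and FOSL1 was lower in TM 4 h (9.61%). Against DMSO, JUNB was lower in TM 1 h (7.78% of genes), and FOSB and FOSL1 in TM 4 h (10.5%). Between the TM times, JUNB and JUND were higher at 4 h (14.5% of genes) and FOSL1 was lower (13.8%).

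By profile across the 5 conditions, measured as the root mean square difference between condition means of log2 CPM after centring each gene, the gene most like FOS was JUN at 0.35, followed by ENSG00000179388_9 at 0.50 and ENSG00000122877_16 at 0.52. For JUN the most alike were FOS at 0.35, ENSG00000179388_9 at 0.56 and FOSB at 0.57. FOSL1 and JUND were near each other, at 0.38, and FOS and FOSL2 were the farthest apart of the 7 genes, at 2.46. The search for the genes most like FOS and JUN ran over the 3338 genes whose mean count in the 15 libraries reached 50. JUND, at a mean count of 44.5, did not reach it, while distances between the members were taken for all 7. FOS, FOSB, JUN and JUNB reached a mean count of 50 through arsenite. JUN had 228, 318 and 553 counts there and at most 20 in any other of these libraries. FOS had 705, 1166 and 1780 there and at most 62 elsewhere. FOSB had 450, 826 and 884 and at most 165, and JUNB 160, 216 and 412 and at most 76. Arsenite is by far the largest deviation in FOS and JUN, so likeness to them is mostly likeness in that rise. The files do not pair these identifiers with names.

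**Figure D2:**
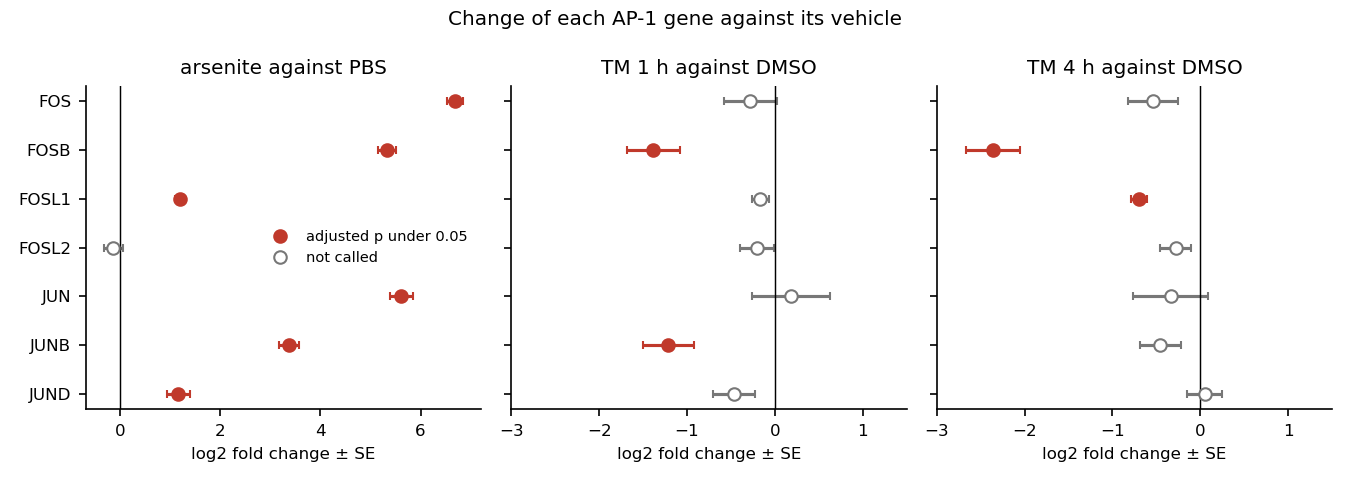
Log2 fold change ± SE (edgeR) of each AP-1 gene for arsenite against PBS, TM 1 h against DMSO and TM 4 h against DMSO. Filled points have an adjusted p under 0.05; 6 genes lie right of 0 in arsenite, while FOSB and JUNB at 1 h and FOSB and FOSL1 at 4 h of TM lie left of it.

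FOSB, JUNB and FOSL1 were called lower at 1 or both times of TM, with calls of FOSB and JUNB that depended on the libraries and the tool. At 1 h, 2 of 7 were lower than in DMSO, FOSB and JUNB, where 0.551% of 8343 genes were called, 0.408% lower and 0.144% higher. The FOSB log2 fold change was -1.38 and that of JUNB -1.21 (SE 0.30 and 0.29; edgeR adjusted p = 0.0076 and 0.024). Neither call held under DESeq2, which gave log2 fold changes of -1.48 and -1.21 (adjusted p = 1.00 and 0.46), nor within the set of replicates 1 and 2 (edgeR adjusted p = 0.31 and 0.33), where the log2 fold changes were -1.33 and -1.25. Without DMSO replicate 3, FOSB was at -0.41 and JUNB at -0.95 (edgeR adjusted p = 0.78 and 0.27). Both calls were also lost without TM 1 h replicate 1 (-1.26 and -1.22, edgeR adjusted p = 0.061 and 0.053) and without TM 1 h replicate 2 (-1.16 and -1.05, edgeR adjusted p = 0.18 and 0.22), and that of JUNB without TM 1 h replicate 3 (-1.50, edgeR adjusted p = 0.11).

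At 4 h, FOSB and FOSL1 were lower than in DMSO, 2 of 7 genes, where 5.11% of genes were called, 2.31% lower and 2.79% higher. FOSB had the third lowest log2 fold change of all genes tested, -2.36 (SE 0.31), with an edgeR adjusted p of 4.6e-08. Without DMSO replicate 3 it was -1.38 (edgeR adjusted p = 0.0073), within the set of replicates 1 and 2 it was -1.04 (edgeR adjusted p = 0.19), and DESeq2 gave -2.12 (adjusted p = 0.054). FOSL1 fell by 0.70 on the log2 scale (SE 0.09, edgeR adjusted p = 1.3e-07), and this call held under all 16 alternatives, which gave -0.78 to -0.50. JUNB, lower at 1 h, was at -0.45 at 4 h (SE 0.23, edgeR adjusted p = 0.30) and was not called. Both TM comparisons share the DMSO libraries, so they are not independent of each other.

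Between the TM times, 11.6% of genes were called, 5.99% lower at 4 h and 5.6% higher. FOSL1 was the 1 member called, at -0.53 on the log2 scale (SE 0.10) with an edgeR adjusted p of 0.00010, and its 4 h libraries were all below its 1 h libraries. JUNB at 0.76 (edgeR adjusted p = 0.097) and FOSB at -0.98 (edgeR adjusted p = 0.11) were not called, so the times were not shown to differ for either.

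The difference between the stresses was tested directly as the arsenite change minus the TM 4 h change. It was called for 6 of 7 genes, all in the direction of arsenite, where 18.3% of 7796 genes were called, 8.57% higher and 9.74% lower. FOSB showed 7.75 (SE 0.42, edgeR adjusted p = 3.2e-25) and FOS 7.25 (SE 0.37, edgeR adjusted p = 1.6e-26) on the log2 scale. JUN followed at 5.96, JUNB at 3.84, FOSL1 at 1.88 and JUND at 1.11, with edgeR adjusted p from 7.1e-18 to 0.0075. FOSL2 was at 0.16 (edgeR adjusted p = 0.76). The 6 calls held under all 19 alternatives. With each library left out, DMSO replicate 3 among them, FOSB ran from 6.73 to 8.11 and FOS from 6.61 to 7.67. These ranges overlapped, so the order of FOSB and FOS is not settled.

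The IgG libraries, which give the background of the procedure, also carried AP-1 reads. With library totals as scaling, 0 of 7 genes were called for anti-IGF2BP3 against IgG by edgeR, and 0 had an unadjusted p under 0.05, where 1.82% of 7592 genes were called, 0.105% higher with the antibody and 1.71% lower. DESeq2 called FOS lower with the antibody (-2.09, adjusted p = 0.0499), and without the IgG arsenite library edgeR did too (-3.04, adjusted p = 0.0025). With TMM factors in place of library totals 703 genes were called, against 138, and FOS turned to 0.59 and FOSB to 0.55, from -0.22 and -0.26, with 0 of the 7 called (edgeR adjusted p = 0.25 and 0.39). In the IgG libraries the 7 genes took 38 of 9366 counts in arsenite, 0.406% (95% exact binomial interval 0.287% to 0.556%), and 9 of 17503 counts in PBS, 0.0514% (0.0235% to 0.0976%). The anti-IGF2BP3 libraries had 0.436% to 0.527% in arsenite and 0.0622% to 0.0667% in PBS. With 1 IgG library per condition the difference within IgG has no replicate check.

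FOS had 11 IgG counts in arsenite, 5 in DMSO, 3 in TM 4 h and 0 in PBS and TM 1 h. In arsenite this was 1174 CPM on the library total (95% exact Poisson interval 586 to 2101), which spans the 1620 to 1870 of the anti-IGF2BP3 libraries. In DMSO it was 636 CPM (206 to 1484), above the 17.7 to 48.2 of the anti-IGF2BP3 libraries, and in TM 4 h it was 260 (53.6 to 760) against 22.95 to 26.2. FOSB had 8 IgG counts in arsenite, 854 CPM (369 to 1683) against 805 to 1325 with the antibody, and 4 in DMSO, 509 CPM (139 to 1302) against 39.6 to 128. The DMSO antibody library from the set of the IgG library was replicate 3, the highest, at 48.2 for FOS and 128 for FOSB. All 10 IgG counts of JUN were in arsenite, 1068 CPM (512 to 1964) against 503 to 551. FOSL1 had 2 to 8 IgG counts in every condition. The 0 counts of FOS, FOSB, JUN and JUNB in IgG PBS allow up to 171 CPM as 3 counts, or 211 as the 95% exact Poisson bound, both above their levels with the antibody. Intervals and limits cover counting error only.

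**Figure D3:**
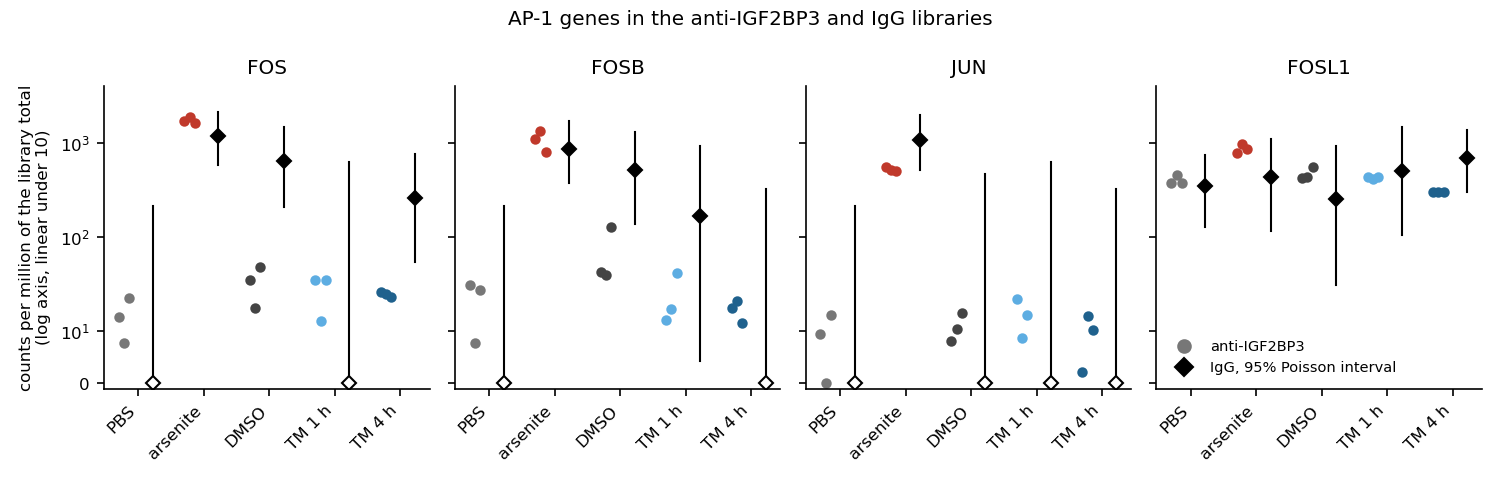
CPM on the library total for FOS, FOSB, JUN and FOSL1 (log axis, linear under 10). Circles are the 3 anti-IGF2BP3 libraries of a condition, diamonds the 1 IgG library (open at 0), with the 95% exact Poisson interval. In arsenite the IgG intervals of FOS and FOSB span the antibody libraries. That of JUN holds antibody replicate 1 and begins just above replicates 2 and 3. In DMSO the intervals of FOS and FOSB lie above the antibody libraries.

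Clusters, the groups of overlapping reads with T-to-C conversions that the authors called per library, show where along each gene the crosslinked reads lay. Arsenite libraries held 14, 11 and 8 FOS clusters with 655, 1102 and 1716 reads, and PBS libraries held 0. The FOS clusters were fewer and longer in the deeper libraries, the longest being 284, 503 and 707 bases, while JUN had 9, 16 and 21 clusters. At like depth, PBS replicate 1 with 244475 cluster reads had 0 in FOS and arsenite replicate 1 with 218140 had 655. JUN clusters were found in arsenite alone, with 134, 230 and 445 reads, although TM 4 h replicate 3 was the deepest library, with 1384774 cluster reads. FOSB had 376, 758 and 793 cluster reads in arsenite, 92 in DMSO replicate 3, 4 in DMSO replicate 1 and 0 in all 6 TM libraries. JUNB had 123, 186 and 350 in arsenite and 0 in all 3 TM 1 h libraries. A 0 here means that no cluster was called, and not that the gene had no reads. FOSB had 44 counts in TM 1 h replicate 3 and 38 in DMSO replicate 2, each with 0 FOSB clusters. JUNB had 26 counts in TM 1 h replicate 3, and JUN 16 in TM 4 h replicate 3. FOSL1 had clusters in all 15 anti-IGF2BP3 libraries, at 1321 ± 219 reads per 1000000 cluster reads in arsenite, 632 ± 85.7 in PBS and 369 ± 46.6 in TM 4 h (SD, n = 3 each). No IgG library had a cluster in any of the 7 genes, and the IgG lists held 33 to 180 clusters each.

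**Figure D4:**
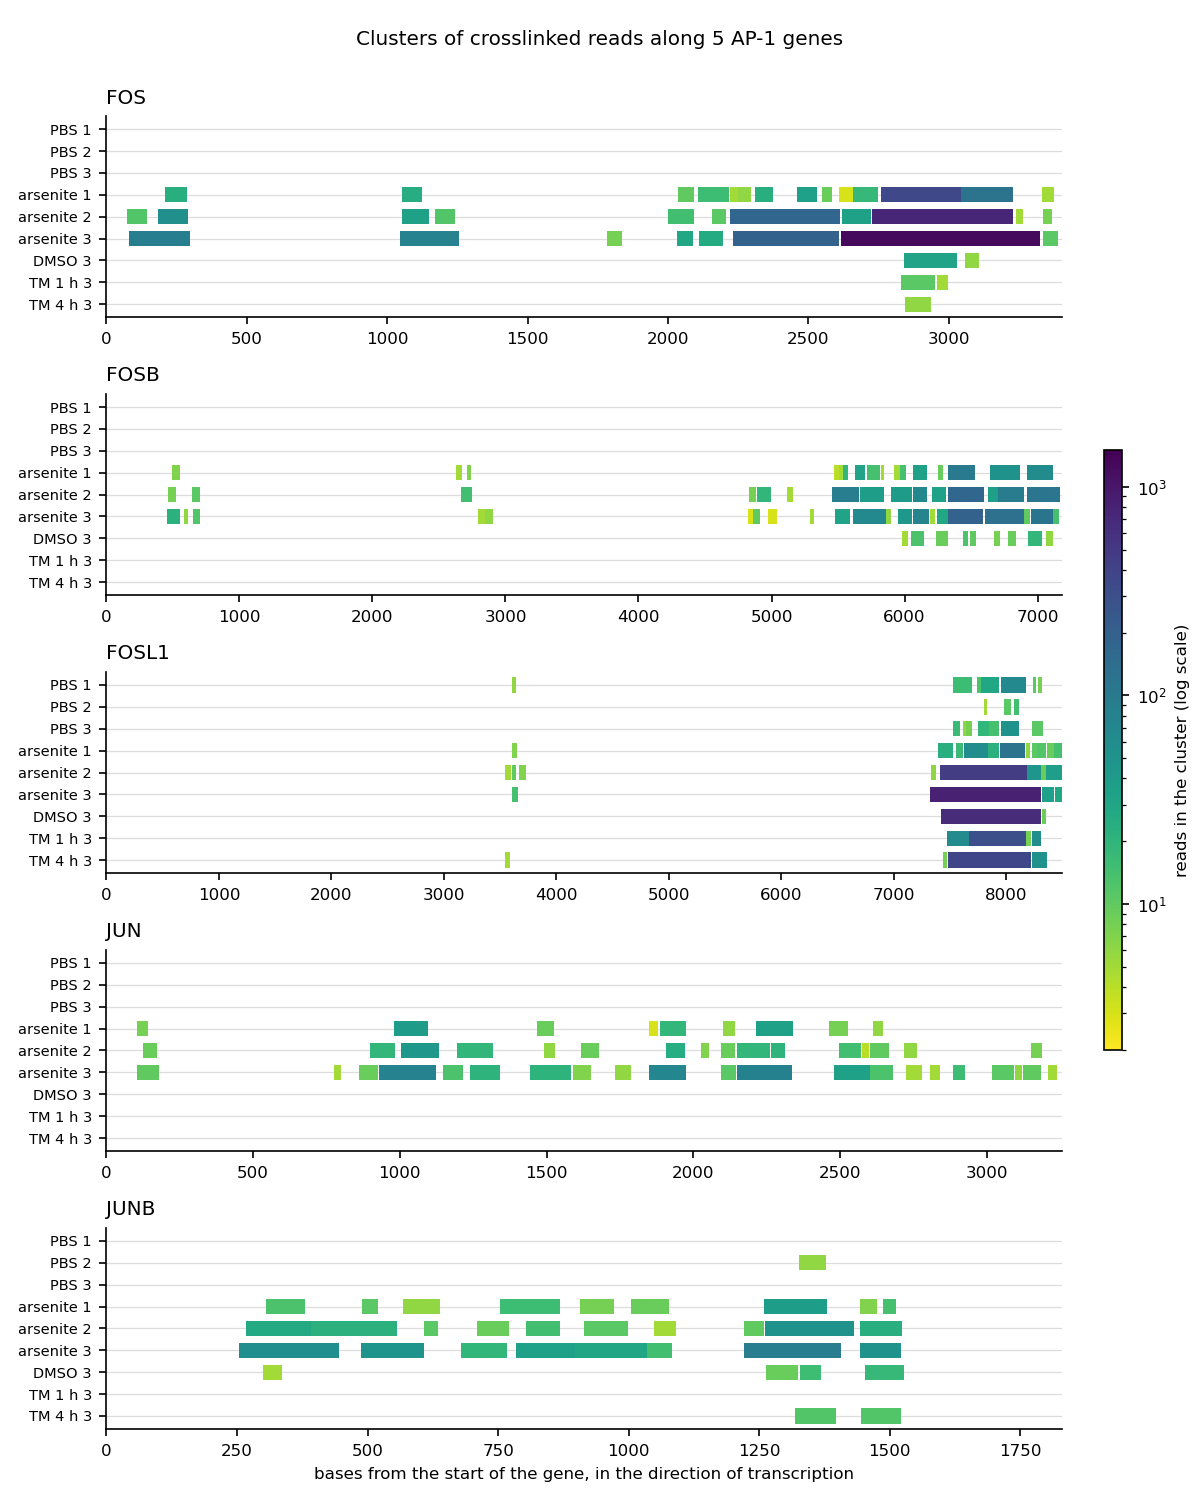
Clusters along FOS, FOSB, FOSL1, JUN and JUNB in 9 anti-IGF2BP3 libraries, by distance in bases from the gene start. Each bar is 1 cluster, coloured by its reads (log scale); FOS, FOSB and FOSL1 clusters gather near the end of the gene and JUN and JUNB clusters spread along it.

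The position of the reads differed between the genes. In arsenite, 76.3 ± 1.96% of FOS cluster reads, 92.4 ± 2.22% of FOSB and 97.1 ± 0.85% of FOSL1 lay in the last 25% of the gene span, against 17.7 ± 6.75% of JUN and 20.1 ± 1.79% of JUNB (SD, n = 3 each). JUN reads were mostly in the middle of the gene, 36.3% and 41.6% in the second and the third part of equal length, as were those of JUNB at 28.2% and 36.3%. JUND had 85.0% and 81.7% in the last 25% in the 2 arsenite libraries with at least 20 of its reads, and FOSL2 100% in the 1 such library. The median over genes with at least 50 cluster reads and a span of up to 10 kb was 71.4% to 78.2% in the 3 arsenite libraries, and over genes of any span it was 90.0% to 91.8%. FOS lay near the former and below the latter, and JUN and JUNB lay below both. An exon or UTR annotation was not used here. The span includes any introns, so these shares give positions along the gene and not along the mRNA. What part of the differences between genes comes from their exon structure was not tested. Of the bases that DMSO replicate 3 clusters covered, arsenite clusters also covered 100% in FOS and FOSL1, 99.7% in FOSB, 98.6% in JUNB, 72.7% in JUND and 28.9% in FOSL2.

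T-to-C conversion, the mark of crosslinking, was 7.68 ± 0.27% of events in FOS clusters in arsenite, below the 8.63% to 8.81% over all clusters of each of those 3 libraries. It was above that in JUN (11.7 ± 0.34%), JUNB (13.97 ± 1.18%), FOSL1 (10.9 ± 1.11%) and FOSB (9.01 ± 0.28%, SD, n = 3 each). JUND was at 8.36 ± 0.70% (SD, n = 3), below its library in 1 and above it in 2, and FOSL2 at 8.11% and 9.27% in the 2 libraries where it had clusters, below and above. FOSL1 was at 11.1 ± 0.53% in PBS (SD, n = 3).

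A 30-base stretch is given from the bases of highest read density that all 3 arsenite libraries covered, to show sequence the arsenite clusters hold. A cluster has 1 read count, so its density is even along its length, and each stretch is the first 30 of 284 bases of equal density in FOS, 201 in FOSB, 217 in FOSL1, 66 in JUN and 31 in JUNB. Capitals stand, where present, for GGAC, the core of the m6A context that IGF2BP proteins are known to read, and for CACA, part of the CA-rich motifs known for this family.
FOS: aagcatccatgtgtGGACtcaagtccttac
FOSB: tgattccatgcccgagtccgcccatccctg
FOSL1: tagatccttagaggtcctctggagccctaa
JUN: agaaagtcatgaaccacgttaacagtgggt
JUNB: aaacCACActGGACtccggccctcctaccc
These are RNA-strand sequences written as DNA from the deposited cluster sequences (GRCh38), at chr14:75281586-75281615 for FOS, chr19:45474322-45474351 for FOSB, chr11:65892570-65892599 for FOSL1, chr1:58782113-58782142 for JUN and chr19:12792929-12792958 for JUNB. Over the whole run of equal density, FOSL1 had a cluster in 12 of the 12 other anti-IGF2BP3 libraries, FOS in 4, JUNB in 2, FOSB in 1 and JUN in 0.

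FOS and FOSB mRNAs are known for AU-rich elements, whose core is ATTTA, and these stretches show that element (in capitals) inside bases covered in all 3 arsenite libraries.
FOS: aaaaATTTAagcattgtttgcttattgttc
FOSB: tttatgaggcaaATTTAtattttttaatat
They lie at chr14:75282163-75282192 and chr19:45474410-45474439. The FOS stretch lay in clusters of only 5, 8 and 11 reads, of 655, 1102 and 1716 in the gene. The FOSB stretch lay in clusters of 101, 173 and 191 reads, of 376, 758 and 793. The element is not particular to these genes, since FOSL1 also has an ATTTA in bases covered in all 3 arsenite libraries. That FOSL1 window had a cluster in 10 other anti-IGF2BP3 libraries. Cut into windows of 30 bases, the arsenite clusters held GGAC on the RNA strand in 10 of 34 windows of JUNB (29.4%), 8 of 50 of JUN, 7 of 43 of FOSL1, 9 of 73 of FOSB, 6 of 58 of FOS and 0 of 8 of both FOSL2 and JUND, and in 7.11% of all 131448 windows. ATTTA was in 2 of 58 windows of FOS, 2 of 50 of JUN, 1 of 43 of FOSL1, 1 of 8 of JUND and 0 of FOSB, JUNB and FOSL2, where an element that spans a border between windows is missed, and in 4.21% of all. CACA was in 2 of 8 windows of JUND (25%), 9 of 43 of FOSL1 (20.9%), 5 of 34 of JUNB (14.7%), 1 of 8 of FOSL2 (12.5%), 8 of 73 of FOSB (10.96%), 5 of 58 of FOS (8.62%) and 4 of 50 of JUN (8%), and in 16.8% of all. The windows of the 7 genes were cut from bases covered in any arsenite library, each base once. Those of all clusters were cut from every distinct cluster, so overlapping clusters count more than once and the shares are not built alike. A match is a description of the letters and not a binding site.

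The upstream sequence is given as a description, and whether it has a part in the rise of crosslinked reads was not tested. RefSeq's promoter table (GRCh38.p14) held 6 of the 7, without FOSL1, which was called higher in arsenite. The 150 bases before the start are printed for FOS, FOSB, JUN and JUNB, which rose most, and for FOSL2, which was not called. Capitals mark TGACG, the core of the CRE and ATF site, and TATAAA, the TATA box, searched on both strands.
FOS: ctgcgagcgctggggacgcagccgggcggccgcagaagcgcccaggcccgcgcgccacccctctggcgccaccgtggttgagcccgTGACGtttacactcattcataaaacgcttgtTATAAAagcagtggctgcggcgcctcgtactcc
FOSB: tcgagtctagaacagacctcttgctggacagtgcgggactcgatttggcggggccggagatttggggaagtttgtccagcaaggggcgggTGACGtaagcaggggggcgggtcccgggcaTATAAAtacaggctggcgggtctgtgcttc
JUN: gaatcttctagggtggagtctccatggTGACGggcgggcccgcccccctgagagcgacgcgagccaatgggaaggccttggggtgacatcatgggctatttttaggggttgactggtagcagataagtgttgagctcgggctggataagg
JUNB: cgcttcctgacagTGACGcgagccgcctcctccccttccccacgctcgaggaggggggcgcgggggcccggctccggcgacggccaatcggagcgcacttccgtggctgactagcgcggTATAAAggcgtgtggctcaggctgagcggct
FOSL2: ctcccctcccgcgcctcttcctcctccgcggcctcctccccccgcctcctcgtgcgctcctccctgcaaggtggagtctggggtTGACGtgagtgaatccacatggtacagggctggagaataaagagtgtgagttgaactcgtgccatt
The windows are chr14:75278678-75278827, chr19:45467846-45467995, chr1:58784048-58784197 (minus strand), chr19:12791336-12791485 and chr2:28392708-28392857. TGACG was in 6 of 6 members and 15.4% of 35116 promoters, so FOSL2, which was not called in arsenite, has it too. It began 64 bases before the start in FOS, 60 in FOSB, 66 in FOSL2, 123 in JUN and 137 in JUNB. TATAAA was in 3 of 6, FOS, FOSB and JUNB, and 6.71% of promoters, 33, 30 and 31 bases before the start.

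Other genes of the AP-1 circuit were read from the clusters, in reads per 1000000 cluster reads, because the count table gives identifiers without names. The lists were chosen with earlier results of these data known, so the shares of a list are a description and not a test. ATF3 and DUSP1 each stand in 2 lists and are counted in both. A gene counted as higher or lower where the 3 treated and 3 control libraries did not overlap, among genes with at least 20 cluster reads over the 6 libraries. In arsenite 21.2% of 4976 genes were higher and 8.88% lower, and the median log2 difference over all of them was 1.65, with PBS replicate 2 so shallow that many genes were at 0 there. On this measure 5 of the 7 AP-1 genes were higher, and FOSL2 and JUND overlapped. Of 16 other immediate early genes 14 were higher, with a median log2 difference of 5.54. EGR3 and EGR2 were at 1541 ± 489 and 557 ± 148 against 0 in all 3 PBS libraries (SD, n = 3 each). EGR1, a zinc finger factor like them, was at 17342 ± 3280 in arsenite and 1229 ± 366 in PBS. NR4A1, an orphan nuclear receptor, was at 1874 ± 334 and 19.1 ± 33.1, and ZFP36, which binds AU-rich elements and speeds mRNA decay, at 1360 ± 213 and 6.82 ± 11.8 (SD, n = 3 each). BTG2 was just separate at 675 ± 92.4 and 524 ± 78.4.

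Of 6 measured AP-1 partners and related bZIP genes 3 were higher in arsenite (median log2 difference 1.08), ATF3, ATF7 and MAFK. ATF3, a stress-induced partner of JUN, was at 2269 ± 466 against 256 ± 227, and ATF4 at 114 ± 57.9 against 410 ± 214 with overlapping ranges (SD, n = 3 each). Of 14 measured kinases and factors upstream of AP-1, 2 were higher (MAP2K3 and ELK4, median log2 difference 0.85). Of 14 measured genes often given as AP-1 targets 6 were higher and 1 lower (median log2 difference 2.83). DUSP1, a phosphatase that switches off stress kinases, was at 318 ± 125 against 0 in all 3 PBS libraries (SD, n = 3). HMOX1, heme oxygenase, was at 67.1 ± 22.9 and TIMP1, a protease inhibitor, at 23.9 ± 7.08, each against 0 in all 3 (SD, n = 3 each). The PBS libraries held 244475, 42699 and 229512 cluster reads, so a 0 there does not show absence at levels this low. VEGFA was only just separate, at 82.5, 79.9 and 116 against 77.7, 0 and 78.4. CCND1, cyclin D1, was lower at 2874 ± 526 against 5336 ± 1066 (SD, n = 3 each).

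After 1 h of TM, 4 of 16 other immediate early genes were lower and 1 was higher than in DMSO, where 5.48% of 5945 genes were lower and 2.35% higher, and the median log2 difference was -1.55 over these genes and -0.55 over all. EGR1 was at 815 ± 213 against 2061 ± 555, and ATF3 at 264 ± 63.3 against 556 ± 158 (SD, n = 3 each), both without overlap. NR4A1 was lower too, at 0, 42.6 and 47.7 against 68.3, 70.4 and 410 in DMSO, where the highest value was again DMSO replicate 3. The 1 higher gene was MYC, at 760 ± 39.7 against 542 ± 57.6 (SD, n = 3 each). Of 6 AP-1 genes with enough cluster reads JUNB was lower. Of the AP-1 partners 1 of 7 was lower (ATF3, which 2 of the lists hold), of the upstream genes 0 of 16 were separate, and of the genes given as targets 2 of 13 were lower (HBEGF and DUSP5). After 4 h, 2 of 18 other immediate early genes were lower, KLF6 and KLF10, where 3.97% of 6529 genes were lower, and EGR1 at 1560, 1924 and 1060 overlapped DMSO at 2215, 1445 and 2522. FOSL1 was the 1 lower AP-1 gene at 4 h. Of the partners 0 of 7 were separate, of the upstream genes 1 of 16 was lower (ELK3), and of the genes given as targets 1 of 14 was higher (VEGFA, where 5.41% of genes were higher) and 1 lower (DUSP5).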

How the data were processed

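The series holds 20 PAR-CLIP libraries, grouped by the treatment and antibody in the labels. The authors deposited raw whole-number counts per gene, and lists of clusters per library, with read counts and conversion events per the file headers. The deposited cluster score was not used. The submitters' processing notes name bcl2fastq 2.20.0.422, UMI-tools 1.1.1, Trimmomatic 0.30, Bowtie 0.12.7 and featureCounts 2.0.1 with the builds GRCh38.p13 and hg38. The cluster caller and how overlapping or near-identical genes were counted are not given in the sources used here. More than 1 RNase concentration is stated without saying which library had which. Columns not mapped to a sample numbered 0.

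All genes were fitted with edgeR 4.0.16 in R 4.3.3 (filterByExpr, TMM factors, quasi-likelihood test, two-sided, Benjamini-Hochberg, threshold 0.05), and all 7 members passed the filter in each fit. In the fit of PBS and arsenite, FOS, FOSB, JUN and JUND did so through the arsenite libraries. DMSO and both TM groups shared 1 fit of 9 libraries, PBS and arsenite another of 6, and the difference between stresses one of 12. The IgG comparison used all 20 libraries with condition as a covariate and library totals as scaling. The SE is the log2 fold change divided by the square root of F. DESeq2 1.42.0, other scalings, no filter, a replicate block, library sets and each library left out were alternatives. On simulated data, 2-fold changes in 200 genes were recovered for 31.5% in the arsenite comparison (6549 genes) and 35% for TM 1 h (8230 genes). For TM 4 h the share was 32.5% (8382 genes) and for IgG 6% (7437 genes). The simulation gave every gene the same spread between replicates (negative binomial dispersion 0.05). This was not fitted to these libraries, so the shares do not measure their power. A missed call does not show that a gene was unchanged. Of 15 replicate pairs all differed beyond sampling noise (chi-square test, largest p = 8.8e-23).

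Clusters were assigned to genes with pandas 2.3.3 by RefSeq spans of GRCh38.p14. Of 518 clusters inside RefSeq promoter windows, 518 had the identical sequence. For 4190 of 20033 protein-coding genes the strand was not listed and clusters of either strand were taken. FOSL1 was one of them, and all 83 of its clusters lay on the minus strand. The cluster lists of IgG PBS and IgG arsenite are named the other way round from their samples, and GEO's assignment was kept. Gene lists were planned on the counts and run on cluster reads, since no table pairs the identifiers with symbols. The members and the lists were chosen with earlier results of these data known. Named genes are the 7 members, the 3 nearest profiles to FOS and JUN, and up to 4 genes per list and comparison from those that passed, with EGR1, ATF4 and BTG2 added after their values were seen.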

Additional observations from a re-analysis of the deposited data

Results flagged for a closer look

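The response of 6 genes differed between arsenite and 4 h of TM by a direct test (edgeR, adjusted p under 0.05). The arsenite change minus the TM change was 7.75 for FOSB, 7.25 for FOS, 5.96 for JUN, 3.84 for JUNB, 1.88 for FOSL1 and 1.11 for JUND on the log2 scale. These stresses have their own vehicles and library sets, and the part of these in the difference was not tested. With each library left out, FOSB ran from 6.73 to 8.11 and FOS from 6.61 to 7.67. FOSL1 also differed between the TM times, with a log2 fold change of -0.53 from 1 h to 4 h.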

How the results depend on the processing

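The 6 arsenite calls held under all 12 alternatives and those of the difference between stresses under all 19, and FOSL1 at TM 4 h under all 16. Fewer AP-1 genes were called for TM 1 h, 0 with DESeq2 and 0 within the set of replicates 1 and 2, and 0 to 2 with a library left out, and for TM 4 h, 1 with DESeq2 and 1 within that set. Between the TM times 2 were called with no filter and 1 to 2 with a library left out. Against IgG 1 was called with DESeq2 and 0 to 1 with a library left out. Over all genes, DESeq2 called 6 for TM 1 h, 151 for TM 4 h, 502 between TM times, 1233 for arsenite, 854 for the difference between stresses and 261 against IgG. The edgeR counts were 46, 426, 967, 2310, 1427 and 138. The set of replicates 1 and 2, with fewer libraries, gave 16, 129 and 488 for TM 1 h, TM 4 h and between them. TMM factors gave 703 against IgG. With a library left out the counts were 13 to 51, 178 to 447 and 523 to 1022 for those 3 comparisons and 91 to 140 against IgG.

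Signs turned for values that were not called, and the cause was not tested. Within the set of replicates 1 and 2, FOSL2 turned to 0.37 at TM 1 h and 0.59 at TM 4 h, FOS to 0.14 and JUND to -0.060 at TM 4 h, FOS to 0.29, FOSB to 0.29 and FOSL2 to 0.22 between TM times, and FOSL2 to -0.70 in the difference between stresses. DESeq2 turned JUND to -0.029 at TM 4 h and FOSL2 to 0.0205 between TM times. TMM factors turned FOS to 0.59, FOSB to 0.55 and JUND to 0.037 against IgG. Leaving out each library gave, at TM 1 h, -0.75 to 0.33 for FOS, -0.25 to 0.015 for FOSL1 and -0.43 to 0.40 for FOSL2. At TM 4 h it gave -0.90 to 0.062 for FOS, -0.50 to 0.32 for FOSL2 and -0.16 to 0.19 for JUND. Between TM times it gave -0.55 to 0.21 for FOS and -0.28 to 0.20 for FOSL2. FOSL2 ran from -0.23 to 0.032 in arsenite and from -0.45 to 0.38 in the difference between stresses. Against IgG the ranges were -3.04 to 0.21 for FOS, -1.83 to 0.20 for FOSB, -0.23 to 0.46 for FOSL1 and -1.001 to 5.63 for JUN.

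Little pairing of the libraries by replicate number was seen (same-number correlations of deviations -0.12 to 0.085). Correlations this weak cannot exclude it, and in DMSO and TM replicate 3 is also a library set of its own. A replicate block, a fit with the number as a term, changed none of the AP-1 calls. It gave FOSB at -1.50 and JUNB at -1.24 for TM 1 h, FOSB at -2.40 for TM 4 h and FOS at 6.66 for arsenite. Over all genes it called 43, 371, 902, 2111 and 1247 for TM 1 h, TM 4 h, between TM times, arsenite and the difference. Low counts of FOS, FOSB, JUN and JUNB outside arsenite and the 5 shallow IgG libraries limit what these comparisons can detect.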
